A study of Mus musculus with 12 samples.

Results

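The calcium/calmodulin-dependent protein kinases (CaM kinases) and the inhibitors of CaMKII were followed across 2 brain regions and 2 genotypes. The set held 10 genes, namely the CaMKII subunits Camk2a, Camk2b, Camk2d and Camk2g, the CaMKII inhibitors Camk2n1 and Camk2n2, the kinases Camk4 and Camk1, and the upstream kinases Camkk1 and Camkk2. Every probe set that the platform annotation assigns to a single member and to no other gene was taken, whatever its signal. This gave 30 of the 45037 tested probe sets and covered 9 of the 10 genes. Camk2d had 7 probe sets, Camk2a 6, Camk4 5 and Camkk2 4, Camk2g, Camk2n1 and Camk1 had 2 each, and Camk2b and Camk2n2 had 1 each. Camkk1 was not analysed here. Probe sets of a gene are numbered in order of identifier, and the brightest of them over the 12 arrays stands for the gene.

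When calcium enters a neuron it binds calmodulin, and calcium-bound calmodulin switches these kinases on. CaMKII is a multi-subunit enzyme that is abundant at glutamatergic synapses, phosphorylates itself and its substrates, and is needed for long-term potentiation in the hippocampus, while the small proteins encoded by Camk2n1 and Camk2n2 bind active CaMKII and block it. CaMKI and CaMKIV lie in a separate cascade: the CaMKK enzymes phosphorylate and activate them, CaMKK2 also phosphorylates the energy sensor AMPK, and CaMKIV acts largely in the nucleus on transcription factors such as CREB.

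RNA was measured on 12 arrays, 3 in each of 4 groups: APPsα-DM hippocampus, APLP2-KO hippocampus, APPsα-DM cortex and APLP2-KO cortex. APPsα-DM mice are APPα/αAPLP2-/-, with an edited App allele that encodes the secreted ectodomain APPsα and no membrane-bound APP, and APLP2-KO mice are APLP2-/- with unedited App. Both genotypes are labelled APLP2-/-, no wild type was analysed here, and all mice were females between 38 and 40 weeks of age from a line crossed back to C57BL/6 for 6 generations. Cortex stands for prefrontal cortex throughout. Each genotype had 3 mice and 3 arrays per tissue, so the tissues share mice, while the labels do not say whether equal replicate numbers mark the same mouse. The tests treat the 12 arrays as independent unless a replicate block is named. The mean genotype effect is an exception, since it averages the hippocampus and cortex arrays of equal replicate number within a genotype.

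All values are the authors' RMA signals on the log2 scale, from 1.80 to 14.36, with array medians of 5.86 to 5.91. App matched the genotype labels: its brightest probe set gave 11.46 to 11.66 in APPsα-DM hippocampus against 13.44 to 13.49 in APLP2-KO hippocampus, and 11.73 to 11.83 in APPsα-DM cortex against 13.38 to 13.50 in APLP2-KO cortex. Aplp2 gave a signal in every group, with means of 9.94 ± 0.13 (SD, n = 3) in APPsα-DM hippocampus, 10.01 ± 0.14 in APLP2-KO hippocampus, 10.06 ± 0.13 in APPsα-DM cortex and 10.08 ± 0.09 in APLP2-KO cortex. Whether its probe set lies in the deleted part was not analysed here, so this value does not check the APLP2-/- label. Markers of hippocampal fields and dentate gyrus matched the tissue labels, with 11 of 14 higher in hippocampus than cortex in APPsα-DM mice and 12 of 14 in APLP2-KO mice. The cortex pieces also carried striatal markers: Drd2, a dopamine receptor gene of striatal neurons, averaged 5.35 in APPsα-DM hippocampus against 8.51 in APPsα-DM cortex, and 5.50 in APLP2-KO hippocampus against 8.29 in APLP2-KO cortex. Ttr, a choroid plexus gene, ranged from 8.20 to 14.36 and was high in cortex on 2 arrays, APPsα-DM cortex 2 (14.18) and APLP2-KO cortex 3 (14.03). In whole tissue, fewer cells of a type and less RNA per cell cannot be told apart.

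In both genotypes most member genes had a lower signal in hippocampus than in cortex. The brightest probe sets of Camkk2, Camk4, Camk1, Camk2g, Camk2n1 and Camk2a were lower in hippocampus. Their differences were -1.15 to -0.35 log2 units in APPsα-DM mice and -1.27 to -0.61 in APLP2-KO mice. The Camk2a probe sets disagreed: number 4 was higher in hippocampus, and the average of all 6 passed in neither genotype. Camk2g probe set 1 passed in APPsα-DM mice under 10 of the 18 alternatives tried. Camk2b, with 1 probe set, was higher in hippocampus in both genotypes, a call that was lost when certain single arrays were left out. None of the 7 Camk2d probe sets passed the threshold. Between the genotypes no member passed the threshold in either region. The nearest was Camk2n2 in cortex, which averaged 10.42 in APPsα-DM and 10.79 in APLP2-KO.

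Counted over probe sets, hippocampus minus cortex passed an adjusted p of 0.05 for 17 of the 30 in APPsα-DM mice, 2 higher and 15 lower, where 10.6% of all 45037 probe sets passed (5.21% higher and 5.42% lower). In APLP2-KO mice it passed for 18 of the 30, 2 higher and 16 lower, where 12.6% of all probe sets passed (5.62% higher and 6.98% lower). Of the 30, 19 averaged at least 7 log2 units, while the median of the means of all probe sets was 5.89. The share called among probe sets of like signal is not given here. The adjusted p is from limma's moderated test with Benjamini-Hochberg adjustment over all 45037 probe sets, and errors of differences are its standard errors (SE). Arrays of hippocampus and cortex did not overlap for 17 members in APPsα-DM mice (27.4% of all probe sets) and for 17 in APLP2-KO mice (30.2%). The median difference of the 30 was -0.39 in APPsα-DM mice and -0.50 in APLP2-KO mice, beside -0.01 and 0.01 over all probe sets tested. All 17 probe sets called in APPsα-DM mice were also called in APLP2-KO mice with the same sign, which is 100% of the first list and 94.4% of the second, and the additional probe set in APLP2-KO mice was that of Camk2n2. With 1 probe set per gene, 7 of 9 genes passed in APPsα-DM mice, 1 higher and 6 lower (13.9% of 18193 genes, 6.59% higher and 7.34% lower), and 8 of 9 in APLP2-KO mice, 1 higher and 7 lower (16.5%, with 6.78% higher and 9.7% lower).

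**Figure D1:**
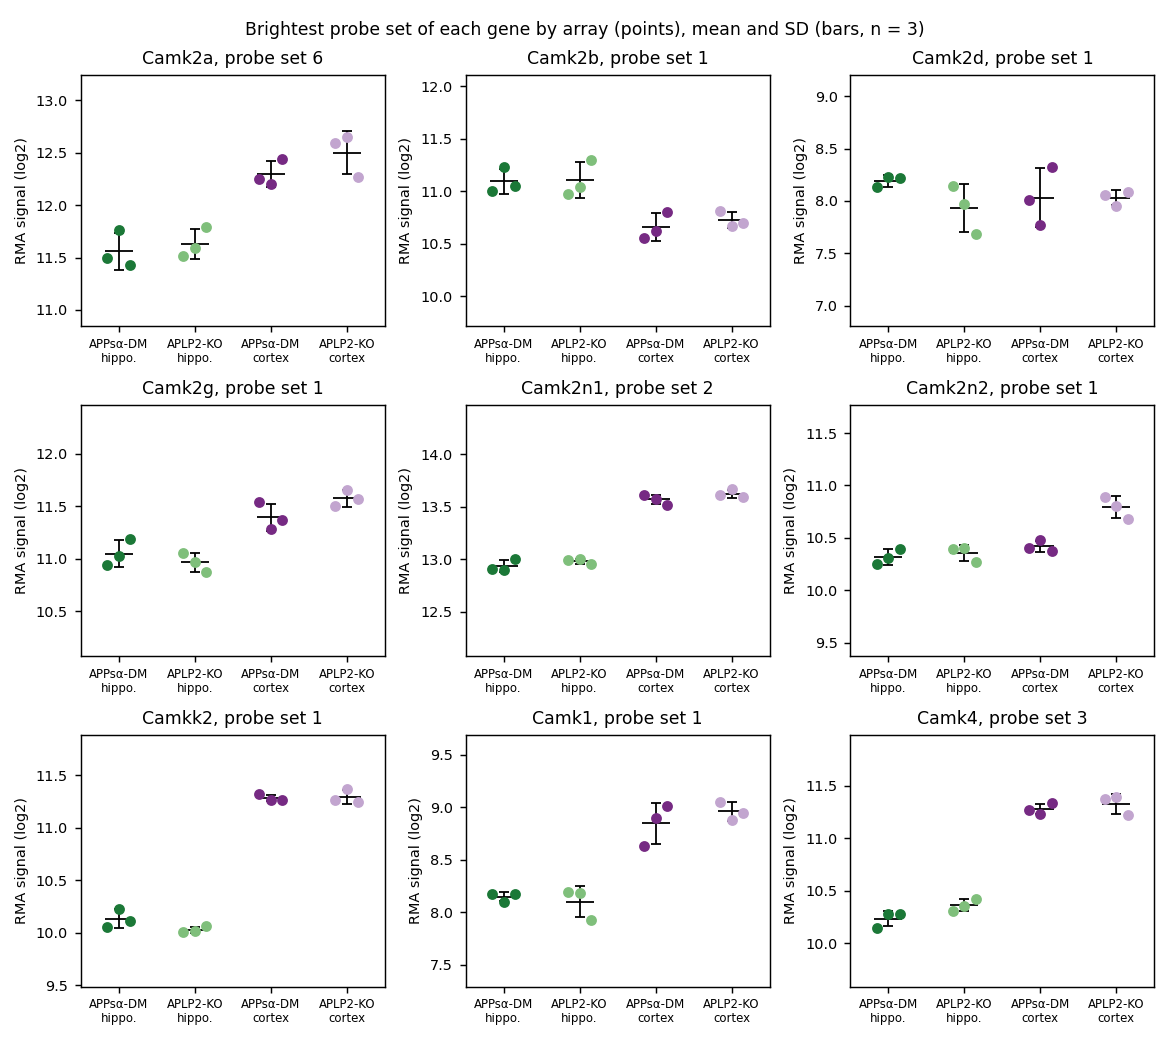
Signal of the brightest probe set of each of the 9 genes on the 12 arrays (log2 units, vertical axis; axes start above 0 and cover an equal span in each panel), with points for arrays, horizontal lines for group means and bars for the SD (n = 3). For Camkk2 the APPsα-DM hippocampus arrays sit at 10.06 to 10.23 against 11.26 to 11.32 in APPsα-DM cortex; for Camk2n2 the APPsα-DM cortex arrays sit at 10.37 to 10.47 against 10.68 to 10.89 in APLP2-KO cortex.

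The stretches upstream of 3 members are shown because these genes carry the results: Camkk2 with the smallest p of the tissue differences, Camk2b as the gene that was higher in hippocampus, and Camk2n2 with the smallest p between genotypes. RefSeq (GRCm38.p6) gave a promoter that could be shown for 6 of the 10 members. Each line is the 250 bases before the annotated start, 5′ to 3′ on the gene's own strand. The stretches are chr5:122779411-122779660 for Camkk2, chr11:6065749-6065998 for Camk2b and chr16:20621279-20621528 for Camk2n2, all on the minus strand. Capitals mark the Sp1 box (GGGCGG or its reverse complement CCGCCC) and the CRE core (TGACG or CGTCA), the short form of the element that CREB, a substrate of CaMKIV, binds.
Camkk2: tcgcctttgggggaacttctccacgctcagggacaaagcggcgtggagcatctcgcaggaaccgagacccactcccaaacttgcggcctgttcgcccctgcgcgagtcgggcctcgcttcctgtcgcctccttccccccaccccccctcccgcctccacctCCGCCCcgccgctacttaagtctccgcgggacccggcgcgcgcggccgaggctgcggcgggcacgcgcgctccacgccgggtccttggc
Camk2b: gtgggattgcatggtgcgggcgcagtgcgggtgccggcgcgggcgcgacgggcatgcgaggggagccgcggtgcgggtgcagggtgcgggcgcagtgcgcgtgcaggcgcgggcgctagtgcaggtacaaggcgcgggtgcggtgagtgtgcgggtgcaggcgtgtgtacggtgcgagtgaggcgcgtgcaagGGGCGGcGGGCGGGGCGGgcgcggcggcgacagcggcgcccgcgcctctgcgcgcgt
Camk2n2: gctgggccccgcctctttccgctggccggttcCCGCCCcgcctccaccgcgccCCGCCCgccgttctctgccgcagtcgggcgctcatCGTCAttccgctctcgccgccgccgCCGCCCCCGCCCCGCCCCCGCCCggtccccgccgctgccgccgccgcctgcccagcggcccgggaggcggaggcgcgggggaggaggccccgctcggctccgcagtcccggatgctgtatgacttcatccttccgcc
The Camkk2 stretch was 72.4% G and C and held 1 Sp1 box and no CRE core. The Camk2b stretch was 78.4% G and C, with 3 Sp1 boxes, of which 1 pair overlapped, and no CRE core. In the Camk2n2 stretch, 80.0% of the bases were G or C, and it held 6 Sp1 boxes, of which 1 pair overlapped, and 1 CRE core. Among 32536 promoters of the table with the same length, the median content of G and C was 52.4%, 33.0% held an Sp1 box and 17.9% a CRE core on either strand. These shares are not matched for the content of G and C. The Sp1 box consists of G and C alone, so it is more likely in stretches rich in them. None of the 3 stretches held TATAAA or TTTATA, which 12.3% of promoters did, or the full CRE TGACGTCA, which 1.56% did. A match is a run of letters, and no binding was measured.

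Of the CaMKII subunits, Camk2a encodes the alpha subunit, the chief one of forebrain excitatory neurons. Its brightest probe set (number 6) read 11.49, 11.76 and 11.43 in APPsα-DM hippocampus against 12.25, 12.20 and 12.44 in APPsα-DM cortex. In APLP2-KO mice it read 11.51, 11.59 and 11.79 in hippocampus against 12.59, 12.65 and 12.27 in cortex. Every hippocampus array lay below every cortex array in both genotypes. Hippocampus minus cortex was -0.73 ± 0.12 in APPsα-DM mice (adjusted p = 0.00154) and -0.87 ± 0.12 in APLP2-KO mice (adjusted p = 0.000352), or 1.66-fold and 1.83-fold lower. Its means were 11.56 ± 0.18 (SD, n = 3) in APPsα-DM hippocampus, 11.63 ± 0.14 in APLP2-KO hippocampus, 12.30 ± 0.12 in APPsα-DM cortex and 12.50 ± 0.20 in APLP2-KO cortex, in rising order, and the genotypes overlapped within each tissue.

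The 6 Camk2a probe sets did not give the same tissue difference. Probe set 1 followed probe set 6, with differences of -0.83 ± 0.14 in APPsα-DM mice and -0.90 ± 0.14 in APLP2-KO mice (adjusted p = 0.00178 and 0.000826). Probe set 4 went the other way. It read 7.81, 7.84 and 8.04 in APPsα-DM hippocampus against 7.29, 7.08 and 7.10 in APPsα-DM cortex, and 7.48, 8.11 and 8.48 in APLP2-KO hippocampus against 7.53, 7.21 and 7.31 in APLP2-KO cortex. The groups were apart in APPsα-DM mice (0.74 ± 0.19, adjusted p = 0.0249), and in APLP2-KO mice 1 hippocampus array lay within the cortex range (0.67 ± 0.19, adjusted p = 0.0352). Leaving out single arrays ended this call in APPsα-DM mice for APPsα-DM cortex 2 (adjusted p = 0.0807), APPsα-DM cortex 3 (0.0718), APPsα-DM hippocampus 2 (0.0512) and APPsα-DM hippocampus 3 (0.0963). In APLP2-KO mice it ended without APLP2-KO cortex 2 (adjusted p = 0.119), APLP2-KO cortex 3 (0.0941), APLP2-KO hippocampus 2 (0.111) and APLP2-KO hippocampus 3 (0.126, at 0.45). It also ended with the choroid plexus score as a covariate (adjusted p = 0.0989 in APPsα-DM mice and 0.0655 in APLP2-KO mice), after the pair of cortex arrays with high Ttr was left out (0.109 and 0.114) and, in APLP2-KO mice, on the 6 arrays of the comparison alone (0.0999). With genotype and replicate number together as a block, the adjusted p was 0.0508 in APPsα-DM mice and 0.0634 in APLP2-KO mice. Probe sets 2, 3 and 5 passed in neither genotype, with differences of -0.24 to 0.14. When all 6 were averaged, Camk2a differed by -0.22 in APPsα-DM mice (adjusted p = 0.272) and by -0.20 in APLP2-KO mice (adjusted p = 0.297). Where these probe sets lie in the Camk2a transcripts was not analysed here.

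**Figure D2:**
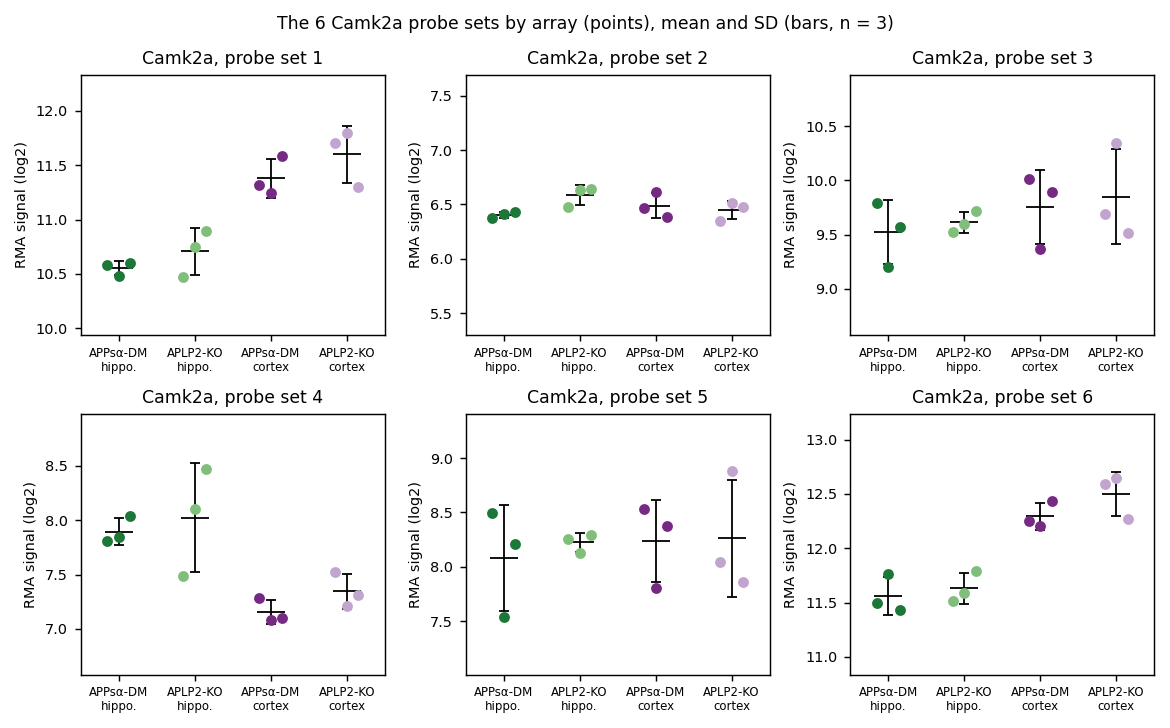
Signal of the 6 Camk2a probe sets on the 12 arrays (log2 units, vertical axis; points are arrays, lines means, bars SD, n = 3), numbered in order of identifier. Probe sets 1 and 6 lie lower in hippocampus than cortex, probe set 4 has higher means in hippocampus with 1 APLP2-KO array within the cortex range, and probe sets 2, 3 and 5 overlap between the tissues.

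Camk2b encodes the beta subunit, which also binds actin filaments. Its probe set read 11.00, 11.23 and 11.05 in APPsα-DM hippocampus against 10.55, 10.62 and 10.80 in APPsα-DM cortex, and 10.98, 11.04 and 11.30 in APLP2-KO hippocampus against 10.81, 10.67 and 10.69 in APLP2-KO cortex. All hippocampus arrays were above the cortex arrays of their genotype. The difference was 0.43 ± 0.10 in APPsα-DM mice (1.35-fold, adjusted p = 0.0137) and 0.38 ± 0.10 in APLP2-KO mice (1.30-fold, adjusted p = 0.0250). The call was lost without APPsα-DM cortex 1 (adjusted p = 0.0626) or APPsα-DM hippocampus 2 (0.0555) in APPsα-DM mice, and in APLP2-KO mice without APLP2-KO hippocampus 3 (0.105, at 0.28), APLP2-KO cortex 3 (0.0762) or APLP2-KO cortex 2 (0.0869). Leaving out the pair of cortex arrays with high Ttr also ended it in both genotypes, at 0.42 in APPsα-DM mice (adjusted p = 0.0667) and 0.36 in APLP2-KO mice (0.0909). Its means were 11.09 ± 0.12 (SD, n = 3) in APPsα-DM hippocampus and 11.11 ± 0.17 in APLP2-KO hippocampus, above 10.66 ± 0.13 in APPsα-DM cortex and 10.73 ± 0.08 in APLP2-KO cortex, with the genotypes overlapping in each tissue.

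Camk2g encodes the gamma subunit, which in neurons can carry calcium/calmodulin to the nucleus. Probe set 1 read 10.94, 11.02 and 11.18 in APPsα-DM hippocampus against 11.54, 11.29 and 11.37 in APPsα-DM cortex. In APLP2-KO mice the values were 11.06, 10.97 and 10.88 in hippocampus against 11.50, 11.66 and 11.57 in cortex. Hippocampus lay below cortex on every array. The difference was -0.35 ± 0.09 in APPsα-DM mice (adjusted p = 0.0243) and -0.61 ± 0.09 in APLP2-KO mice (adjusted p = 0.000520). For probe set 2 it was -0.43 ± 0.08 in APPsα-DM mice (adjusted p = 0.00283) and -0.72 ± 0.08 in APLP2-KO mice (adjusted p = 4.99e-05). The probe set 1 call in APPsα-DM mice did not outlast the loss of APPsα-DM cortex 1 (adjusted p = 0.102), APPsα-DM cortex 3 (0.0502), APPsα-DM hippocampus 1 (0.0956) or APPsα-DM hippocampus 2 (0.0673), the choroid plexus covariate (0.101) or a fit on the 6 arrays of the comparison alone (0.0720). With genotype and replicate number together as a block its adjusted p was 0.0608. Its means were 11.05 ± 0.13 (SD, n = 3) in APPsα-DM hippocampus, 10.97 ± 0.09 in APLP2-KO hippocampus, 11.40 ± 0.13 in APPsα-DM cortex and 11.58 ± 0.08 in APLP2-KO cortex, with overlap between the genotypes in each tissue.

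Camk2d encodes the delta subunit, known best from heart muscle. Probe set 1, its brightest, read 8.13, 8.23 and 8.22 in APPsα-DM hippocampus against 8.01, 7.77 and 8.33 in APPsα-DM cortex. In APLP2-KO mice it read 8.14, 7.97 and 7.69 in hippocampus against 8.06, 7.95 and 8.08 in cortex. The tissues overlapped in both genotypes. The difference was 0.16, with a 95% interval of -0.13 to 0.45, in APPsα-DM mice and -0.10, with an interval of -0.39 to 0.19, in APLP2-KO mice. Over all 7 probe sets it ran from -0.14 to 0.24 in APPsα-DM mice and from -0.24 to 0.14 in APLP2-KO mice, with none past the threshold, and 3 of them (4, 5 and 6) averaged under 5 log2 units. These intervals do not show that the signal was equal in the 2 tissues. Its 4 group means were 8.19 ± 0.05 (SD, n = 3) in APPsα-DM hippocampus, 7.93 ± 0.23 in APLP2-KO hippocampus, 8.03 ± 0.28 in APPsα-DM cortex and 8.03 ± 0.07 in APLP2-KO cortex. Of the pairs of groups, only the arrays of APPsα-DM hippocampus and APLP2-KO cortex did not overlap.

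The CaMKII inhibitors also differed by tissue. Camk2n1 had the largest tissue difference of the 30 probe sets. Its probe set 1 read 9.39, 9.74 and 9.38 in APPsα-DM hippocampus against 11.12, 11.15 and 11.02 in APPsα-DM cortex, and 9.52, 9.56 and 9.36 in APLP2-KO hippocampus against 11.29, 11.22 and 11.06 in APLP2-KO cortex. The tissues were apart, with a difference of -1.59 ± 0.10 or 3.01-fold in APPsα-DM mice (adjusted p = 9.25e-07) and -1.72 ± 0.10 or 3.28-fold in APLP2-KO mice (adjusted p = 4.36e-07). The brighter probe set 2 gave a smaller difference of -0.64 ± 0.06 in both genotypes (adjusted p = 1.96e-05 and 1.50e-05). It read 12.91, 12.90 and 13.00 in APPsα-DM hippocampus against 13.61, 13.57 and 13.52 in APPsα-DM cortex. In APLP2-KO mice it read 12.99, 13.00 and 12.95 in hippocampus against 13.62, 13.67 and 13.59 in cortex, again without overlap. Its means were 12.93 ± 0.05 (SD, n = 3) in APPsα-DM hippocampus, 12.98 ± 0.02 in APLP2-KO hippocampus, 13.57 ± 0.05 in APPsα-DM cortex and 13.62 ± 0.04 in APLP2-KO cortex, and the genotypes overlapped in each tissue. Probe set 2 averaged 13.28 over the 12 arrays, on a scale that ended at 14.36. RMA can compress differences at this end, and whether it did so here was not tested.

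Camk2n2 lies on chromosome 16 like App, at a distance that was not analysed here. It differed between the tissues in APLP2-KO mice and not detectably in APPsα-DM mice. Its probe set read 10.25, 10.31 and 10.39 in APPsα-DM hippocampus against 10.41, 10.47 and 10.37 in APPsα-DM cortex, and 10.39, 10.41 and 10.27 in APLP2-KO hippocampus against 10.89, 10.81 and 10.68 in APLP2-KO cortex. The 3 APLP2-KO cortex arrays stood above the other 9, which lay between 10.25 and 10.47. Hippocampus minus cortex was -0.43 ± 0.07 in APLP2-KO mice (1.35-fold, adjusted p = 0.00162) and -0.10 ± 0.07 in APPsα-DM mice (95% interval -0.26 to 0.06, adjusted p = 0.469). The difference between these tissue differences, which equals the difference between the genotype effects, was 0.33 ± 0.10 (95% interval 0.11 to 0.56, unadjusted p = 0.00751), and its adjusted p in limma over all probe sets was 1. In rising order, the means were 10.32 ± 0.07 (SD, n = 3) in APPsα-DM hippocampus, 10.36 ± 0.07 in APLP2-KO hippocampus, 10.42 ± 0.05 in APPsα-DM cortex and 10.79 ± 0.10 in APLP2-KO cortex, and the lower 3 overlapped.

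In the CaMKK cascade, Camkk2, the gene of an upstream kinase, was lower in hippocampus on all 4 of its probe sets. Probe set 1 read 10.06, 10.23 and 10.12 in APPsα-DM hippocampus against 11.32, 11.26 and 11.27 in APPsα-DM cortex, and averaged 10.03 ± 0.03 (SD, n = 3, highest 10.06) in APLP2-KO hippocampus against 11.27, 11.37 and 11.25 in APLP2-KO cortex. Arrays of a tissue lay close together, and the tissues did not overlap. Hippocampus minus cortex was -1.15 ± 0.07 or 2.22-fold in APPsα-DM mice (adjusted p = 4.12e-07) and -1.27 ± 0.07 or 2.41-fold in APLP2-KO mice (adjusted p = 1.83e-07). The other 3 Camkk2 probe sets gave -1.17 to -1.03 in APPsα-DM mice and -1.33 to -1.15 in APLP2-KO mice, all past the threshold. All 4 passed in both genotypes under each alternative that left out an array. For probe set 1 the APPsα-DM hippocampus mean was 10.13 ± 0.09 (SD, n = 3), and the cortex means were 11.28 ± 0.03 in APPsα-DM and 11.30 ± 0.07 in APLP2-KO, with the genotypes overlapping in each tissue.

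Camk4, encoding the CaMKK-activated kinase CaMKIV, read 10.15, 10.28 and 10.28 on probe set 3 in APPsα-DM hippocampus against 11.27, 11.24 and 11.34 in APPsα-DM cortex. In APLP2-KO mice it read 10.31, 10.36 and 10.42 in hippocampus against 11.37, 11.40 and 11.22 in cortex. The tissues did not overlap, with differences of -1.05 ± 0.07 in APPsα-DM mice (2.06-fold, adjusted p = 1.29e-06) and -0.97 ± 0.07 in APLP2-KO mice (1.96-fold, adjusted p = 2.10e-06). Probe sets 2 and 4 were also lower in hippocampus, with differences of -0.70 and -1.19 in APPsα-DM mice and -0.56 and -0.91 in APLP2-KO mice, all past the threshold. The dimmer probe sets 1 and 5 passed in neither genotype, at -0.52 and -0.06 in APPsα-DM mice and at -0.28 and 0.01 in APLP2-KO mice. Probe set 3 averaged 10.23 ± 0.07 (SD, n = 3) in APPsα-DM hippocampus and 10.36 ± 0.06 in APLP2-KO hippocampus, which did not overlap, and 11.28 ± 0.05 in APPsα-DM cortex and 11.33 ± 0.09 in APLP2-KO cortex, which did.

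Camk1, encoding the cytosolic kinase CaMKI, read 8.18, 8.10 and 8.17 on probe set 1 in APPsα-DM hippocampus against 8.63, 8.89 and 9.02 in APPsα-DM cortex. The APLP2-KO values were 8.20, 8.18 and 7.93 in hippocampus against 9.05, 8.88 and 8.95 in cortex. Hippocampus was lower on every array, with a difference of -0.70 ± 0.10 in APPsα-DM mice (1.62-fold, adjusted p = 0.000628) and -0.86 ± 0.10 in APLP2-KO mice (1.81-fold, adjusted p = 0.000107). Probe set 2 gave -0.76 ± 0.09 in APPsα-DM mice and -0.93 ± 0.09 in APLP2-KO mice. The means of probe set 1 were 8.15 ± 0.04 (SD, n = 3) in APPsα-DM hippocampus, 8.10 ± 0.15 in APLP2-KO hippocampus, 8.85 ± 0.19 in APPsα-DM cortex and 8.96 ± 0.09 in APLP2-KO cortex, and genotypes overlapped in both tissues.

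**Figure D3:**
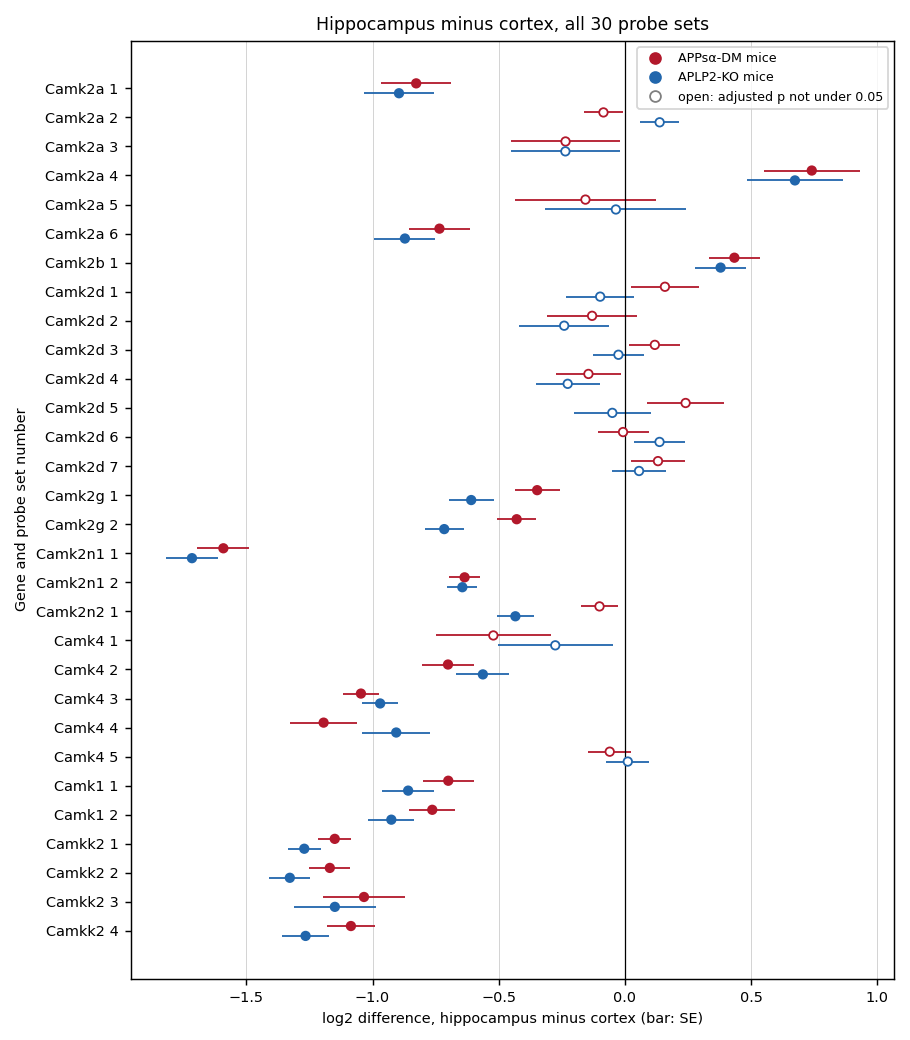
Hippocampus minus cortex for each of the 30 probe sets (log2 units, horizontal axis; bars are the SE of limma's fit), in APPsα-DM mice and in APLP2-KO mice, with filled points where the adjusted p was under 0.05. The 17 probe sets called in APPsα-DM mice and the 18 called in APLP2-KO mice lie mostly left of 0, with Camk2b and Camk2a probe set 4 to the right; Camk2n2 is filled in APLP2-KO mice.

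Striatal markers moved with the tissue comparison. Of 16 genes on the list 14 were measured, and hippocampus was lower than cortex past the threshold for 14 of 14 in APPsα-DM mice and 13 of 14 in APLP2-KO mice. Their mean signal lay between 7.18 and 7.36 in APPsα-DM hippocampus against 9.03 to 9.61 in APPsα-DM cortex, and between 7.08 and 7.41 in APLP2-KO hippocampus against 8.96 to 9.34 in APLP2-KO cortex. With that mean as a covariate no member passed in either genotype, and 4 of all 45037 probe sets did in APPsα-DM mice and 11 in APLP2-KO mice. The covariate separates the tissues almost as the groups do, and the SE of Camkk2 probe set 1 was then 0.29 in APPsα-DM mice and 0.27 in APLP2-KO mice, beside 0.07 in each without it. Camkk2 then differed by -1.36 in APPsα-DM mice (adjusted p = 0.303) and by -1.47 in APLP2-KO mice (0.220). Camk4 probe set 3 differed by -0.99 and -0.91, and Camk2n1 probe set 2 by -0.83 and -0.82, in the same order of genotypes. Camk1 probe set 1 turned to 0.34 in APPsα-DM mice and 0.10 in APLP2-KO mice, and Camk2a probe set 4 to -0.45 and -0.43. The part of striatal tissue in the members' differences was not tested beyond this fit, in which tissue and striatal signal cannot be told apart.

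Other cell type markers differed between the tissues too. Of 11 measured markers of cortical excitatory neurons, 2 were higher and 6 lower in hippocampus in APPsα-DM mice, and 3 were higher and 6 lower in APLP2-KO mice. Interneuron markers were lower for 5 of 10 in APPsα-DM mice and 4 of 10 in APLP2-KO mice, and astrocyte markers were higher for 3 of 10 and lower for 1 of 10 in each genotype. Thalamus markers were higher for 1 of 9 and lower for 2 of 9 in APPsα-DM mice, and 2 and 2 of 9 in APLP2-KO mice. Endothelial markers were lower for 0 of 10 in APPsα-DM mice and 5 of 10 in APLP2-KO mice. Among oligodendrocyte, microglia and choroid plexus markers limma called 0 of 9, 0 of 9 and 0 of 10 in either genotype, with unadjusted p under 0.05 for 0, 0 and 2 in APPsα-DM mice and for 2, 1 and 0 in APLP2-KO mice. Their part in the members' differences was not tested.

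APPsα-DM minus APLP2-KO addresses what replacing APP by its secreted ectodomain does in mice labelled APLP2-/-. In cortex limma called 0 of the 30 members (0.00888% of all probe sets), and 2 had an unadjusted p under 0.05 (4.50% of all). The groups did not overlap for 2 members (8.73% of all probe sets), both lower in APPsα-DM (4.66% of all in that direction). Differences lay below 0 for 23 of the 30, where 48.5% of all probe sets did. The median was -0.05, beside 0.00 over all. The 30 probe sets belong to 9 genes and share arrays, so their signs are not independent.

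Camk2n2 had the smallest p of the members in cortex. Its values of 10.41, 10.47 and 10.37 in APPsα-DM cortex against 10.89, 10.81 and 10.68 in APLP2-KO cortex gave -0.37 ± 0.07, or 1.30-fold lower, with a 95% interval of -0.53 to -0.21. The unadjusted p was 0.000261, which ranked 16 of 45037, and the adjusted p was 0.735, so that the difference did not pass the threshold. Over the alternatives tried, the value lay between -0.46 and -0.33 and the adjusted p between 0.217 and 1. It was -0.37 with the choroid plexus score as a covariate, -0.39 with the striatal score and -0.46 when the pair of cortex arrays with high Ttr was left out. In hippocampus, where the arrays overlapped, the same probe set differed by -0.04 (95% interval -0.20 to 0.12).

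Camk2g probe set 2 was the other member whose cortex arrays did not overlap. It read 10.95, 10.73 and 10.79 in APPsα-DM cortex against 11.04, 11.11 and 10.99 in APLP2-KO cortex, a difference of -0.22 ± 0.08 (unadjusted p = 0.0139, adjusted p = 1). Camk2g probe set 1 differed by -0.18 ± 0.09 and overlapped. The Camk2a probe sets 6 and 1 differed by -0.21 ± 0.12 and -0.22 ± 0.14, also with overlap, and Camkk2 probe set 1 by -0.01 ± 0.07. Several marker lists leaned in a single direction in cortex without a call: all 14 striatal markers lay above 0 with a median of 0.21, 9 of 10 endothelial markers lay above 0 with a median of 0.12, and 8 of 11 markers of cortical excitatory neurons lay below 0 with a median of -0.11. All 9 oligodendrocyte markers lay below 0 with a median of -0.05, and 9 of 10 astrocyte markers with a median of -0.07. An unadjusted p was under 0.05 for 1 striatal, 2 endothelial, 4 excitatory, 0 oligodendrocyte and 2 astrocyte markers. Their part in the members' values was not tested.

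In hippocampus limma called 0 of the 30 members (0.00888% of all probe sets), with 1 at an unadjusted p under 0.05 (4.11% of all). As many members lay below 0 as above it, 15 each, and 51.2% of all probe sets lay below 0. Camk2a probe set 2 read 6.38, 6.41 and 6.43 in APPsα-DM hippocampus against 6.48, 6.64 and 6.64 in APLP2-KO hippocampus (-0.18 ± 0.08, unadjusted p = 0.0373, adjusted p = 1). It and Camk4 probe set 3 (-0.13 ± 0.07) were the 2 members without overlap (9.88% of all probe sets), both lower in APPsα-DM (5.78% of all in that direction). The highest value was that of Camk2d probe set 1, with 8.13, 8.23 and 8.22 in APPsα-DM hippocampus against 8.14, 7.97 and 7.69 in APLP2-KO hippocampus, a difference of 0.26 ± 0.13 with a 95% interval of -0.03 to 0.55. All 10 endothelial markers lay above 0 in this comparison with a median of 0.29, and 7 of them had an unadjusted p under 0.05. All 10 choroid plexus markers also lay above 0, with a median of 1.10 and an unadjusted p under 0.05 for 0 of 10. None of either list was called, and their part in the members' values was not tested.

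**Figure D4:**
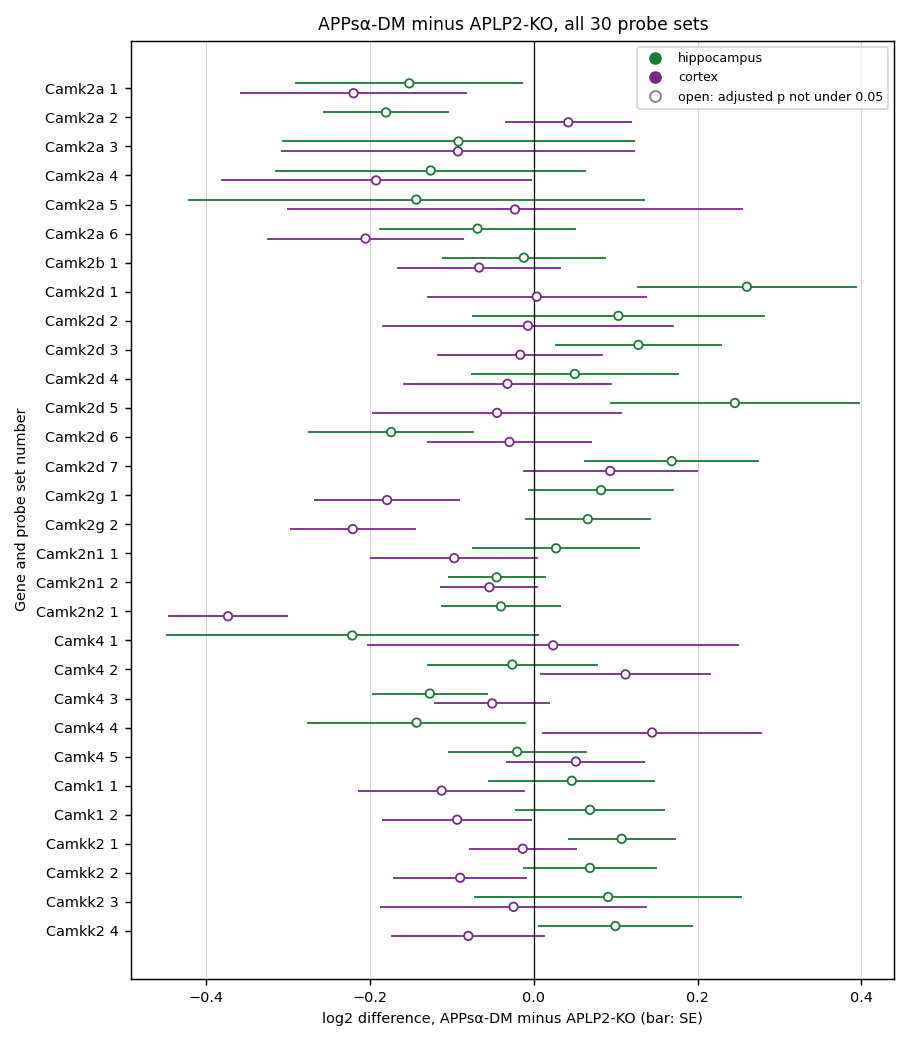
APPsα-DM minus APLP2-KO for each of the 30 probe sets (log2 units, horizontal axis; bars are the SE of limma's fit), in hippocampus and in cortex. All points are open, since no adjusted p was under 0.05, and Camk2n2 in cortex, at -0.37, lies farthest from 0.

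The difference between the genotype effects (hippocampus minus cortex) was called for 0 of the 30 members (0% of all probe sets). Its unadjusted p was under 0.05 for 2, Camk2n2 and Camk2g probe set 2 (0.29 ± 0.11, unadjusted p = 0.0215), where 3.79% of all probe sets reached that. The genotype effect on the mean of the 2 tissues was called for 0 of 30 (0.00888% of all), and 3 had an unadjusted p under 0.05 (4.03% of all). These were Camk2n2 (-0.21 ± 0.06, unadjusted p = 0.00851), Camk2a probe set 6 (-0.14) and Camk2a probe set 1 (-0.19), each with an adjusted p of 1. In this comparison the averages of the genotypes were apart for 7 members, 6 lower and 1 higher in APPsα-DM (9.13% of all probe sets, and 4.72% lower). The 95% intervals of the genotype difference differed in width among the brightest probe sets. Those of Camk2n1 (-0.18 to 0.08 in both tissues) and Camkk2 (-0.16 to 0.13 in cortex, -0.04 to 0.25 in hippocampus) were the narrowest. Larger differences could have been missed for Camk2a (-0.47 to 0.06 in cortex), Camk2g (-0.37 to 0.01 in cortex), Camk1 (-0.33 to 0.11 in cortex) and Camk2d (-0.29 to 0.30 in cortex, -0.03 to 0.55 in hippocampus). The same holds for Camk2b (-0.28 to 0.15 in cortex, -0.23 to 0.21 in hippocampus).

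Other genes of calcium/calmodulin signalling showed tissue differences in both directions, described here with 1 probe set per gene beside 13.9% of all genes in APPsα-DM mice and 16.5% in APLP2-KO mice. Of 15 other CaM kinase relatives, 6 were higher and 4 lower in hippocampus in APPsα-DM mice, and 7 were higher and 4 lower in APLP2-KO mice. The higher ones included Pnck, which encodes another CaMKI isoform (0.59 in APPsα-DM, 0.57 in APLP2-KO), and Camkv, which encodes a kinase-like protein of synaptic vesicles (0.50 and 0.41). Dapk2, a death-associated kinase gene, was lower (-0.92 and -0.90). These relatives went in either direction, and the difference between their counts and those of the 9 member genes was not tested.

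Among 8 measured genes of calmodulin and its buffers, 1 was higher and 3 lower in hippocampus in each genotype. Pcp4 and Pcp4l1, which encode small calmodulin-binding peptides, were lower (-1.31 and -1.42 in APPsα-DM mice, -1.23 and -1.50 in APLP2-KO mice). Nrgn, which encodes the postsynaptic calmodulin-binding protein neurogranin, was also lower (-0.40 in APPsα-DM, -0.58 in APLP2-KO), and Marcksl1 was higher (0.83 and 0.99). Of 10 calcineurin genes, 0 were higher and 3 lower in APPsα-DM mice and 0 were higher and 2 lower in APLP2-KO mice, with an unadjusted p under 0.05 for 3 and 6. The lower ones were the calcineurin regulators Rcan2 (-0.88 in each genotype) and Rcan1 (-0.30 in APPsα-DM, -0.38 in APLP2-KO), and the anchoring protein gene Akap5 in APPsα-DM mice (-0.35).

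Phosphatases and their regulators gave 1 higher and 3 lower of 10 in each genotype. Ppm1e, which encodes a phosphatase that removes the activating phosphate of CaM kinases, was higher (0.69 in APPsα-DM, 0.83 in APLP2-KO). Ppp1r1b, which encodes the protein phosphatase inhibitor DARPP-32 and is also on the striatal list, was lower (-2.42 and -2.54). Of 14 measured CaMKII partners and substrates, 3 were higher and 5 lower in each genotype. Gria1, an AMPA receptor subunit gene whose product CaMKII phosphorylates, was higher by 1.30 in APPsα-DM mice and 1.35 in APLP2-KO mice. Stx1a, the syntaxin gene of the vesicle fusion machinery, was lower (-1.24 and -1.38), as was the scaffold gene Homer1 (-0.74 and -0.60).

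Of 7 calmodulin-dependent cyclases, phosphodiesterases and nitric oxide synthase, 1 was higher and 2 lower in APPsα-DM mice and 1 higher and 1 lower in APLP2-KO mice. These included the phosphodiesterase gene Pde1b (-1.29 and -1.31) and Nos1, the neuronal nitric oxide synthase gene (0.82 and 1.17). Of 20 measured targets of the CaMKK, CaMKI and CaMKIV enzymes, 2 were higher and 4 lower in APPsα-DM mice, and 4 were higher and 5 lower in APLP2-KO mice. Mef2c, a neuronal transcription factor gene, was lower (-1.38 and -1.58), like Prkaa2, which encodes a catalytic subunit of AMPK (-0.46 and -0.56). Crtc3, a CREB coactivator gene, was higher (0.68 and 0.48). Between the genotypes limma called 0 genes of these lists in either tissue. The lists held 15, 8, 10, 10, 14, 7 and 20 measured genes, in the order given. Among them an unadjusted p was under 0.05 for 5 in cortex (4.50% of all probe sets) and 1 in hippocampus (4.11%). The smallest unadjusted p belonged to Dlg4, the gene of the postsynaptic scaffold PSD-95, in cortex, which averaged 9.30 in APPsα-DM and 9.77 in APLP2-KO (-0.48 ± 0.12, unadjusted p = 0.00226, adjusted p = 1).

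**Figure D5:**
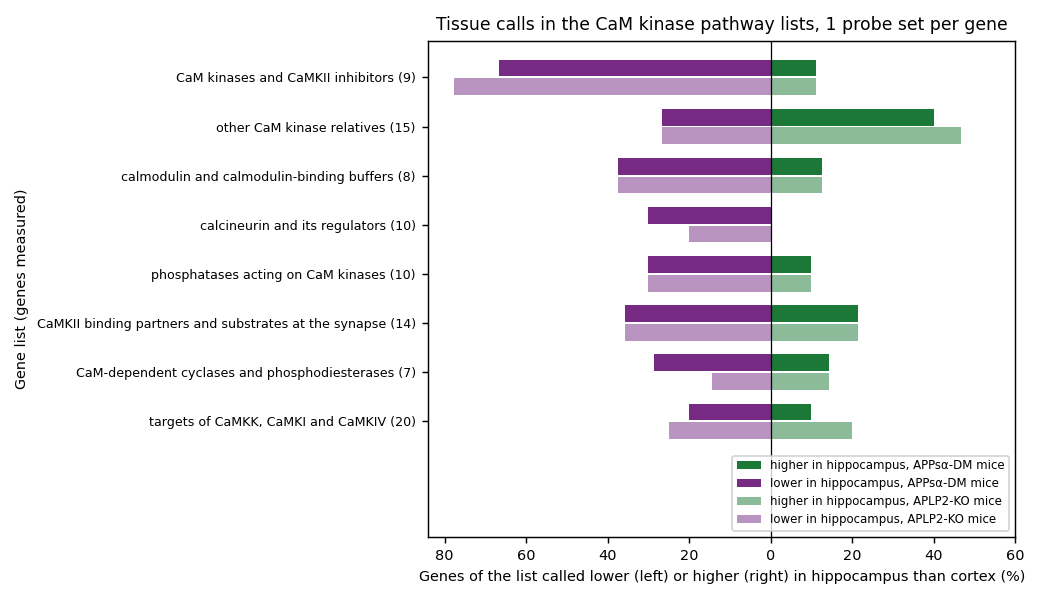
Share of genes called higher (right of 0) or lower (left of 0) in hippocampus than in cortex in each list (percent of the genes measured, in brackets), for APPsα-DM mice and APLP2-KO mice, with 1 probe set per gene. For the 9 CaM kinase and inhibitor genes the bars reach farther left than right, and for the 15 other CaM kinase relatives farther right than left.

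The genes whose signal followed a member most closely over the 12 arrays, among 9471 genes with a mean of at least 7 log2 units, are given as a description, since the arrays share the tissue split. Camkk2 was most like Mtcl1 (Pearson r = 0.997), Exph5 (0.997) and Mark1 (0.994). Camk2n1 was most like Stx1a (r = 0.996), Ipcef1 (0.994) and Sgtb (0.992), and Camk4 most like Pcp4 (0.990), Flrt1 (0.990) and Camk2n1 itself (0.989). The Camk2n2 arrays were apart between the tissues in APLP2-KO mice and overlapped in APPsα-DM mice. Its closest genes were Bcl2l2 (0.955), Dctn2 (0.938) and Rtf2 (0.936). Camk2d had the loosest matches, led by Bbs4 (0.861).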

How the data were processed

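RNA of prefrontal cortex and hippocampus was measured on 12 1-colour Affymetrix arrays, 3 per genotype and tissue, from 1 µg of total RNA labelled as biotin cRNA, per the labels' protocols. The deposited values are on the log2 scale; per the submitters' processing notes the authors used RMA and the affy package (versions: not given in the sources used here). This method corrects background, normalises by quantiles and summarises probes, and can compress differences at both ends of the scale; no source states which arrays were normalised jointly.

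Of 45101 probe sets, 64 controls were left out and 45037 tested without a filter. The platform annotation gave 1 symbol for 34945, several for 932 and none for 9160; 204 of the first kind did not match the RefSeq gene table, which supplied current symbols and chromosomes. In R 4.3.3 with limma 3.58.1, lmFit fitted the 4 group means over 12 arrays (8 residual degrees of freedom), eBayes moderated their variances (prior degrees of freedom 4.25), and contrasts were adjusted by Benjamini-Hochberg over all probe sets, two-sided, at 0.05. The mean genotype effect used the averages of the 2 tissues by genotype and replicate number. The fit of the genotype difference in cortex was run on simulated data with independent noise. The other comparisons and the alternatives were not simulated. Precision is limited by how many arrays there are: a genotype difference had a median SE of 0.0938 log2 units. In the fit over 12 arrays, p-values set a difference against the spread of arrays within groups, counted as independent. The tissues share mice, 3 per genotype, but the labels do not tie replicate numbers to mice. Deviations of same-numbered hippocampus and cortex arrays correlated at 0.109, 0.131 and 0.155 in APLP2-KO mice, over the bound of 0.1 used. In APPsα-DM mice they correlated at 0.0785, 0.0193 and 0.0372, under that bound. Each was the highest correlation among the numbers in both genotypes. This is a hint from the data and does not establish which arrays share a mouse.

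Named were all members, per pathway list and comparison up to 4 genes with the smallest p, and the 3 genes most like a member. The members and lists were chosen with earlier results of these data known. Alternatives covered the spread estimate, replicate block, normalisation, dim filter, moderation, array weights, probe set averaging, single arrays left out, and choroid plexus or striatal covariates.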

Additional observations from a re-analysis of the deposited data

How the results depend on the processing

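Between the genotypes, in their mean effect and in the difference of effects, the number of members called was 0 under every alternative run; the fit on only the 6 arrays of a comparison was not run for the mean effect and the difference. For hippocampus minus cortex, averaging all probe sets of a gene gave 6 of 9 genes in APPsα-DM mice and 7 of 9 in APLP2-KO mice, a count over genes in place of probe sets, and the striatal covariate gave 0 and 0 of 30. With that covariate Camk2a probe set 4 turned to -0.45 in APPsα-DM mice and -0.43 in APLP2-KO mice, and Camk1 probe set 1 to 0.34 and 0.10; the cause was not tested. Leaving out single arrays gave 14 to 16 in APPsα-DM mice, against 17 with all arrays, and 16 to 18 in APLP2-KO mice, against 18. The lowest count, 14, was without APPsα-DM hippocampus 2. Leaving out the 2 cortex arrays high in Ttr gave 15 and 16, and the choroid plexus covariate 15 and 17.

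For the tissue comparisons and the difference of effects, the block was genotype and replicate number together. It takes equal numbers within a genotype as the same mouse, which the labels do not state. With it, 15 members were called for hippocampus minus cortex in APPsα-DM mice and 17 in APLP2-KO mice. For the genotype comparisons the block was the replicate number shared by both genotypes, and 0 members were called. Blocking by genotype and number ended the calls of Camk2a probe set 4 (adjusted p = 0.0508 in APPsα-DM, 0.0634 in APLP2-KO). It also ended that of Camk2g probe set 1 in APPsα-DM mice (0.0608), and changed no other call. Among the genotypes, deviations of same-numbered APPsα-DM and APLP2-KO arrays correlated at -0.255 to 0.206 (6 pairs, 2 over 0.1), and those numbers are not shown to pair the arrays.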
